A study of Mus musculus with 2 samples.

Results

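Preleptotene to zygotene spermatocytes are the male germ cells that leave mitotic growth and pass through the opening stages of meiotic prophase. They were chosen here as 851 of 37541 cell barcodes from whole mouse testis, 587 of 22503 in the Prm2 -/- library (2.61%, 2.40% to 2.83%) and 264 of 15038 in the Prm2 +/- library (1.76%, 1.55% to 1.98%). Every interval is an exact 95% one and covers counting error only. The barcodes, called members below, had at most 20% mitochondrial UMIs (unique molecular identifiers, 1 per captured RNA molecule). Their summed UMIs of Stra8, Prdm9, Dmc1, Meiob and Meioc were at least 3, at least 0.05% of all UMIs, and not below the sum of 9 spermatogonial genes (Zbtb16, Sall4, Gfra1, Kit, Uchl1, Crabp1, Sohlh1, Rhox13, Dmrt1). Piwil1 and Pou5f2, 2 pachytene genes, had together fewer than 3 UMIs. These 16 genes made the choice, so their levels describe the members and are no finding.

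The series compares whole testis of Prm2 -/- mice, in which both copies of the protamine 2 gene are mutated, with Prm2 +/- mice, which keep 1 wild-type copy. Protamine 2 packs DNA in the sperm head and is made long after the stages described here. Each genotype has 1 library and the labels give no age, strain background or number of animals, so no difference between the genotypes can be tested and library and genotype cannot be told apart. The Prm2 -/- library held 22885 barcodes and 123588822 UMIs and the Prm2 +/- library 15210 barcodes and 71364845 UMIs, where the labels give 15000 cells put into each. The 2 libraries shared 88 barcode sequences, of which 0 were members. The targeted gene, Prm2, had 4 UMIs in Prm2 -/- members (1.97 CPM, counts per 1e6 UMIs of the summed members) and 5244 UMIs in Prm2 +/- members (4789 CPM).

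In prophase of meiosis, a spermatogonium answers retinoic acid with STRA8 and MEIOSIN, copies its DNA once more in preleptotene, and then cuts it. PRDM9, a histone methyltransferase, marks the sites, SPO11 makes the breaks, and the recombinase DMC1 carries the broken ends into the homologous chromosome. MEIOB binds single-stranded DNA beside it, while MEIOC and its partner YTHDC2 act on RNA to keep cells in prophase. Meanwhile the chromosomes gain a protein axis, and in zygotene the synaptonemal complex begins to join homologs along it.

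Members were shallow cells, with a median of 2908 UMIs in Prm2 -/- and 3450.5 in Prm2 +/-, and with a median of 4 and 5 UMIs over the 5 choosing genes. Summed over members, Stra8 stood at 310 CPM in Prm2 -/- and 356 CPM in Prm2 +/-, Dmc1 at 313 and 271 CPM, Meioc at 444 and 419 CPM, Prdm9 at 94.1 and 76.7 CPM, and Meiob at 203 and 385 CPM. The mm10 positions are chr6:34920163-34939344 for Stra8, chr15:79561497-79605109 for Dmc1, chr11:102663716-102682237 for Meioc and chr17:24804289-24839788 for Meiob. Of the Prm2 -/- members with a Stra8 UMI, 67.2% also had a Dmc1 UMI and 17.0% a Meiob UMI, against 68.2% and 29.4% in Prm2 +/-. Among all members, 348 of 587 in Prm2 -/- and 154 of 264 in Prm2 +/- had a Dmc1 UMI. A Meiob UMI was in 247 and 178 of them. The barcodes were chosen on the sum of these genes, so the shares are description only. At the edge of the rule, 212 Prm2 -/- and 61 Prm2 +/- members had exactly 3 UMIs of the 5 genes, and 364 and 121 further barcodes fell just outside with 2. Another 137 and 101 barcodes were left out by Piwil1 and Pou5f2 alone.

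The members' share of barcodes depended on which barcodes were counted and on their depth. Barcodes had a median of 3787 UMIs in Prm2 -/- and 1900.5 in Prm2 +/-. After every barcode was thinned to 2000 UMIs, 260 of 15503 Prm2 -/- barcodes (1.68%, 1.48% to 1.89%) and 181 of 7316 Prm2 +/- barcodes (2.47%, 2.13% to 2.86%) were members, with 7000 and 7722 shallower barcodes left out. The order of the libraries was thus turned round. It was also turned round, without thinning, when only barcodes with at least 2000 UMIs were counted, as given in the closing section. No order of the libraries is read from these shares. Per barcode of the spermatogonium set (the same rule with the spermatogonial genes above the 5 meiotic ones) there were 1.20 members (1.06 to 1.35) in Prm2 -/- and 1.40 (1.15 to 1.69) in Prm2 +/-, intervals that overlapped. After thinning the ratios were 0.981 (0.824 to 1.17) in Prm2 -/- and 1.83 (1.42 to 2.36) in Prm2 +/-, intervals that did not overlap.

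Markers of other cells were measured over the same members. The spermatid list (18 genes, here without Prm2) took 22209 CPM in Prm2 -/- and 22880 CPM in Prm2 +/- members, close to the 21729 and 23218 CPM of the spermatogonium set, against 45906 and 65319 CPM over all barcodes. With Prm2 counted in, the median log2 ratio of the list, Prm2 -/- over Prm2 +/- in members, was 0.06, with 11 of 18 genes above 0. Once barcodes marked as doublets were left out it was -0.53, with 1 of 17 genes above 0. Summed Sertoli cell genes stood at 556 and 455 CPM in members, with Amh at 0 in Prm2 -/- and Gata4 and Inhbb at 0 in Prm2 +/-. The 9 Leydig cell genes summed to 33.5 and 21.9 CPM, the 10 peritubular and stromal genes to 16.3 and 52.1 CPM, the 10 macrophage genes to 31.5 and 43.8 CPM, and the 4 globin genes to 1.48 and 0 CPM. Hsd3b1 of the Leydig list and Tcf21 of the stromal list were at 0 in both libraries. The spermatogonium set carried more somatic RNA, with 1660 and 1959 CPM of Sertoli and 1036 and 1356 CPM of Leydig genes. Scrublet marked 88 members (15.0%) as doublets in Prm2 -/- and 9 (3.41%) in Prm2 +/-, near the 15.7% and 3.07% it marked over all barcodes. The share expected from the number of barcodes was somewhat above the marked one in Prm2 -/- but 12.0% in Prm2 +/-, where far fewer were marked than expected and unmarked doublets may remain.

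Members fell into groups by which of the 5 genes held most UMIs. In Prm2 -/-, 170 were led by Meioc (29.0%), 111 by Stra8 (18.9%), 105 by Dmc1 (17.9%), 63 by Meiob (10.7%, 8.35% to 13.5%) and 7 by Prdm9, with 131 tied. In Prm2 +/-, 84 were led by Meiob (31.8%, 26.2% to 37.8%), 57 by Meioc (21.6%), 54 by Stra8 (20.5%), 36 by Dmc1 (13.6%) and 1 by Prdm9, with 32 tied. The share led by Meiob was thus lower in the Prm2 -/- library, with intervals that did not overlap, and the tied share was higher (22.3%, 19.0% to 25.9%, against 12.1%, 8.44% to 16.7%). The intervals of the other groups overlapped. These counts come from the choosing genes and stand as description.

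**Figure D1:**
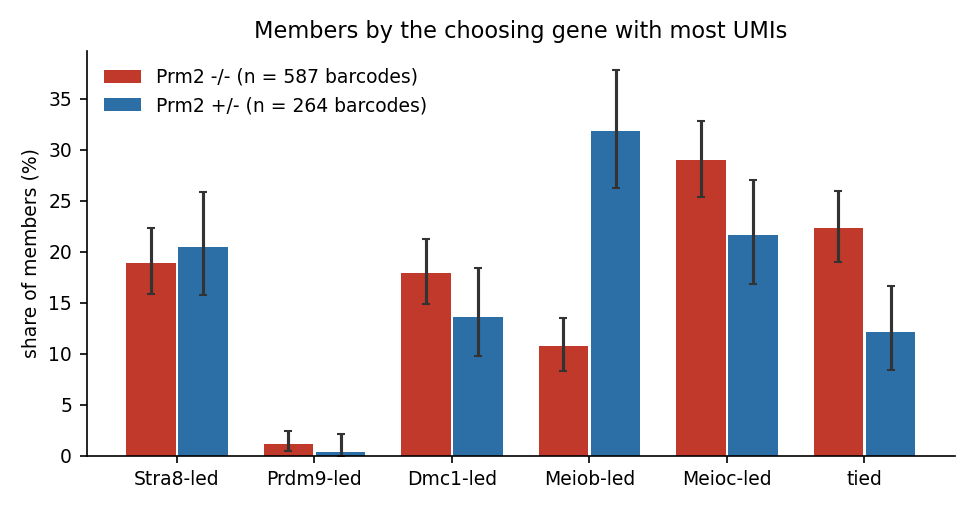
Share of members (%, vertical axis) by the choosing gene with most UMIs, for the Prm2 -/- library (red, 587 members) and the Prm2 +/- library (blue, 264 members). Bars are shares and whiskers exact 95% binomial intervals for counting error; the intervals are apart for Meiob (10.7% in Prm2 -/- and 31.8% in Prm2 +/-) and for tied members (22.3% and 12.1%).

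Genes outside the rule were then read across these groups, set in the order Stra8-led, Dmc1-led, Meiob-led. The levels below are CPM of summed UMIs and serve to compare groups within a gene. These 3 groups held between 134918 UMIs (Dmc1-led, Prm2 +/-) and 378567 UMIs (Stra8-led, Prm2 -/-). Levels of a few CPM therefore rest on very few UMIs, and a level of 0 is not proof of absence. Genes of DNA replication were, of these 3 groups, highest where Stra8 led. Their 37 genes summed to 2676 CPM in Stra8-led, 1992 CPM in Dmc1-led and 1407 CPM in Meiob-led members of Prm2 -/-, and to 3230, 2350 and 1219 CPM in Prm2 +/-. Prim1, the primase that starts each new DNA strand, had 89.8, 55.3 and 4.00 CPM along that order in Prm2 -/- and 174, 29.6 and 11.9 CPM in Prm2 +/-. Mcm5, a subunit of the replicative helicase, had 81.9, 52.4 and 7.99 CPM in Prm2 -/- and 206, 96.4 and 44.7 CPM in Prm2 +/-. Lig1, which seals nicks between replicated fragments, had 211, 137 and 36.0 CPM in Prm2 -/- and 300.5, 215 and 35.8 CPM in Prm2 +/-.

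Among replication genes with at least 20 UMIs over the Stra8-led and Meiob-led groups in each library, 19 of 23 were higher in Stra8-led than in Meiob-led members in both libraries and 3 were lower in both. Of all 5565 genes measured this way, 35.6% were higher in both and 36.7% lower in both. The median log2 ratio of the 23 genes was 1.08 in Prm2 -/- and 1.33 in Prm2 +/-, beside 0.03 and -0.05 over all genes. Single genes were ranked under the stricter level filter, at least 50 CPM in 1 group and at least 100 UMIs over both in each library. Among named genes that passed it, Hist1h1a and Ptma stood furthest above the Dmc1-led group. Hist1h1a is a replication-linked histone H1 gene and Ptma encodes the histone-binding prothymosin alpha. Hist1h1a had 309 CPM in Stra8-led and 81.5 CPM in Dmc1-led members of Prm2 -/-, and 866 and 193 CPM in Prm2 +/-. Ptma had 2095 and 635 CPM in Prm2 -/- and 1969 and 460 CPM in Prm2 +/-. Hist1h2aa, Anp32b and Hsp90ab1 were the next 3 by the same rule.

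Genes of break formation and hotspots, as a sum, stood at 2074, 2126 and 1323 CPM in Stra8-led, Dmc1-led and Meiob-led members of Prm2 -/- and at 2242, 2594 and 1225 CPM in Prm2 +/-. Mei1, needed for break formation in mouse, had 225, 93.2 and 0 CPM in Stra8-led, Dmc1-led and Meiob-led members of Prm2 -/- and 237, 44.5 and 2.98 CPM in Prm2 +/-. Mei4, a partner of SPO11 on the axis, had 76.6, 67.0 and 4.00 CPM in Prm2 -/- and 67.2, 66.7 and 20.9 CPM in Prm2 +/-. Hells, a chromatin remodeller that works with PRDM9 at hotspots, had 520, 466 and 140 CPM in Prm2 -/- and 613, 630 and 179 CPM in Prm2 +/-. Zcwpw1, which reads the histone marks that PRDM9 sets, had 296, 367 and 108 CPM in Prm2 -/- and 380, 489 and 146 CPM in Prm2 +/-. Of 11 genes of break formation and hotspots with enough UMIs, 7 were higher in Stra8-led than in Meiob-led members in both libraries and 3 were lower. Over all 5565 genes, 35.6% were higher and 36.7% lower in both. The median log2 ratios of the 11 genes were 1.05 and 1.38. Spo11 itself was lowest in Stra8-led members, with 34.3, 64.1 and 79.9 CPM in Prm2 -/- and 3.95, 44.5 and 41.7 CPM in Prm2 +/-. It had 127 UMIs over all Prm2 -/- and 31 UMIs over all Prm2 +/- members, so these group levels rest on few UMIs.

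Strand exchange genes split between the groups. Tex15, required for loading DMC1 in mouse, had 832, 856 and 152 CPM from Stra8-led to Meiob-led members in Prm2 -/- and 1158, 912 and 194 CPM in Prm2 +/-. Brca2, which brings DMC1 to single-stranded DNA, had 209, 271 and 124 CPM in Prm2 -/- and 359.8, 460 and 149 CPM in Prm2 +/-. Mnd1, of the accessory complex that helps DMC1 to invade, had 15.8, 11.6 and 63.9 CPM in Prm2 -/- and 19.8, 7.41 and 122 CPM in Prm2 +/-. Over the list, 10 of 19 genes were higher and 7 lower in Stra8-led than in Meiob-led members of both libraries, so the group as a whole had no single direction. The shares over all 5565 genes were 35.6% higher and 36.7% lower. Msh5, a crossover factor, had 76.6, 131 and 83.9 CPM in Prm2 -/- and 111, 126 and 47.7 CPM in Prm2 +/-. Terb1, which ties telomeres to the nuclear envelope, was highest in Dmc1-led members of both libraries, at 71.3, 148 and 75.9 CPM in Prm2 -/- and 123, 274 and 74.5 CPM in Prm2 +/-.

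The Dmc1-led group also carried the most spermatid RNA in Prm2 -/-. The spermatid list without Prm2 took 39410 CPM of its UMIs in Prm2 -/- and 28173 CPM in Prm2 +/-, against 16895 and 17957 CPM in Stra8-led members, and Scrublet marked 20 of the 105 Prm2 -/- and 2 of the 36 Prm2 +/- barcodes, against 25 of the 111 and 2 of the 54 Stra8-led ones. Tnp2 and Tnp1, transition protein genes of late spermatids, were the genes furthest above the Stra8-led group. Tnp2 had 9411 CPM in Dmc1-led and 3376 CPM in Stra8-led members of Prm2 -/-, and 6233 and 3222 CPM in Prm2 +/-. Sycp2, Cabs1 and Ctnna3 followed under the level filter. The part of this RNA in the other differences of the Dmc1-led group was not tested.

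Axis and synaptonemal complex genes, as a sum, were higher at each step of the same order and highest where Meiob led. The 11 genes summed to 4359, 5596 and 8025 CPM in Stra8-led, Dmc1-led and Meiob-led members of Prm2 -/- and to 4483, 6374 and 8589 CPM in Prm2 +/-, with Meioc-led members at 5469 and 6812 CPM. Sycp1, the transverse filament of the synaptonemal complex, had 1014, 1415 and 2366 CPM in Prm2 -/- and 1111, 1883 and 3116 CPM in Prm2 +/-. Sycp3, a core axis protein, had 642, 923 and 1806 CPM in Prm2 -/- and 549.5, 845 and 1672.5 CPM in Prm2 +/-. Hormad1, which marks axes not yet joined, had 375, 338 and 827 CPM in Prm2 -/- and 281, 319 and 945 CPM in Prm2 +/-. Sycp1 lies at chr3:102818499-102936100, Sycp3 at chr10:88459569-88473236 and Hormad1 at chr3:95559677-95587671 of mm10. Syce2, of the central element, was an exception at 666, 708 and 456 CPM in Prm2 -/- and 573, 519 and 295 CPM in Prm2 +/-. Of 10 genes with enough UMIs, 0 were higher and 7 lower in Stra8-led than in Dmc1-led members of both libraries, where 36.4% of 4541 genes were higher in both and 27.4% lower in both. Between Dmc1-led and Meiob-led members the genes divided, with 3 of 10 higher and 5 lower in Dmc1-led members of both libraries. Of all 4890 genes measured this way, 30.1% were higher in both and 35.4% lower in both, near the counts of the list. The list medians were -0.45 in Prm2 -/- and 0.04 in Prm2 +/-.

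The promoters of these 3 axis genes, and of Rad51ap2, which stood furthest above the neighbouring sets below, are shown because they hold some of the same short words. Each runs 5′ to 3′ from 250 bases before to 50 bases after the gene start in RefSeq GRCm38.p6. Capitals mark CACGTG (an E-box, bound by MAX partners such as MGA), GCGGGAA (an E2F word) and CNCCTCAG (a word linked to STRA8 binding), each searched on both strands.
Sycp1 (chr3:102936051-102936350, minus strand): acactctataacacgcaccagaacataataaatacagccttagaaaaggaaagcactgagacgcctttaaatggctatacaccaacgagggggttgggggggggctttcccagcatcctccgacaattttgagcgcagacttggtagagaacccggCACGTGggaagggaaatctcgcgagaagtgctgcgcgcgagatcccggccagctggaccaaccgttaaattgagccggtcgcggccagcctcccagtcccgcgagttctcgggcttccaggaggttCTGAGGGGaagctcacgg
Sycp3 (chr10:88459337-88459636, plus strand): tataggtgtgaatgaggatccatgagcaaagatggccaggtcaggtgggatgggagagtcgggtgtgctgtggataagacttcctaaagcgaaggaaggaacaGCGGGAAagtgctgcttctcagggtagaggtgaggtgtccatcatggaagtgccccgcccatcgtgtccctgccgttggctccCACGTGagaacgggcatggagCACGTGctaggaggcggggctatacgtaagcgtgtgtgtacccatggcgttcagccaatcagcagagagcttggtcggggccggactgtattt
Hormad1 (chr3:95559427-95559726, plus strand): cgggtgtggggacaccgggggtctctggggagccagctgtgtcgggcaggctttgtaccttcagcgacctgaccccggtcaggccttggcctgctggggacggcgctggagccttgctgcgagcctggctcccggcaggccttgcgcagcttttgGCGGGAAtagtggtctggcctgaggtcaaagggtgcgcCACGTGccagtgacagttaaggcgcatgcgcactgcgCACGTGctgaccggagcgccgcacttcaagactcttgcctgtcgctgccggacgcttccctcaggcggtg
Rad51ap2 (chr12:11455805-11456104, plus strand): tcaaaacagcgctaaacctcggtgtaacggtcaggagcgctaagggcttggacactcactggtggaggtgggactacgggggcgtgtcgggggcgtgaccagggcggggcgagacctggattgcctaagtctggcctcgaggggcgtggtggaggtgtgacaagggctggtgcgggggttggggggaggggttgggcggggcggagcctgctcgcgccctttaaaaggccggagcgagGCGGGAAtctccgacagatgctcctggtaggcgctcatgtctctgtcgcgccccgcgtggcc
Sycp3 and Hormad1 each hold 2 CACGTG and 1 GCGGGAA, Sycp1 holds 1 CACGTG and 1 CNCCTCAG, and Rad51ap2 holds 1 GCGGGAA. Over 27025 promoters of this length, 7.24% hold CACGTG, 4.66% GCGGGAA and 7.97% CNCCTCAG. Of the 11 promoters of the axis and synaptonemal list, 5 hold CACGTG, 3 GCGGGAA and 4 CNCCTCAG. GCGGGAA is in 14 of the 31 replication promoters with an entry, in 10 of 23 for strand exchange and in 5 of 11 for cohesin. It is in 2 of 12 for crossover factors and in 0 of 11 for meiotic entry partners. The promoters of Stra8, Dmc1 and Sycp2 hold none of the 3 words in this window, and a match is a run of letters, not a bound site.

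Cohesins, the rings that hold sister chromatids together, summed to 3196, 3162 and 2486 CPM in Stra8-led, Dmc1-led and Meiob-led members of Prm2 -/- and to 3321, 3699 and 2179 CPM in Prm2 +/-. Smc1b, a meiotic cohesin core subunit, had 1215, 1333.5 and 651 CPM in Prm2 -/- and 1202, 1401 and 635 CPM in Prm2 +/-. Rad21l, a meiotic kleisin, had 47.5, 37.9 and 12.0 CPM in Prm2 -/- and 75.1, 59.3 and 11.9 CPM in Prm2 +/-. Over the list, 5 of 9 genes were higher and 3 lower in Stra8-led than in Meiob-led members of both libraries. Beside these, 35.6% of all 5565 genes were higher and 36.7% lower, and no direction of the list is read from its counts.

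Genes of the piRNA pathway, which silences transposons in germ cells, were higher in Meiob-led members than in the other 2 groups of this order. Their 22 genes summed to 2877, 2597 and 4760 CPM in Stra8-led, Dmc1-led and Meiob-led members of Prm2 -/- and to 2427, 2720 and 3751 CPM in Prm2 +/-. Mov10l1, the RNA helicase that starts piRNA processing, had 201, 137 and 699 CPM in Prm2 -/- and 253, 289 and 909 CPM in Prm2 +/-. Piwil2, a piRNA-binding protein gene outside the rule, had 71.3, 55.3 and 384 CPM in Prm2 -/- and 87.0, 133 and 292 CPM in Prm2 +/-. Of 15 genes with enough UMIs, 11 were lower in Stra8-led than in Meiob-led members in both libraries and 2 were higher. Over all 5565 genes the shares were 36.7% lower and 35.6% higher. Meiotic entry partners had no single direction, with 3 of 7 higher and 4 lower in both libraries. The MEIOSIN gene, listed as Gm4969, had 71.3, 55.3 and 4.00 CPM in Prm2 -/- and 115, 66.7 and 2.98 CPM in Prm2 +/-. Dazl, a germ cell RNA-binding protein gene, had 922, 818 and 1303 CPM in Prm2 -/- and 755, 556 and 1061 CPM in Prm2 +/-.

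**Figure D2:**
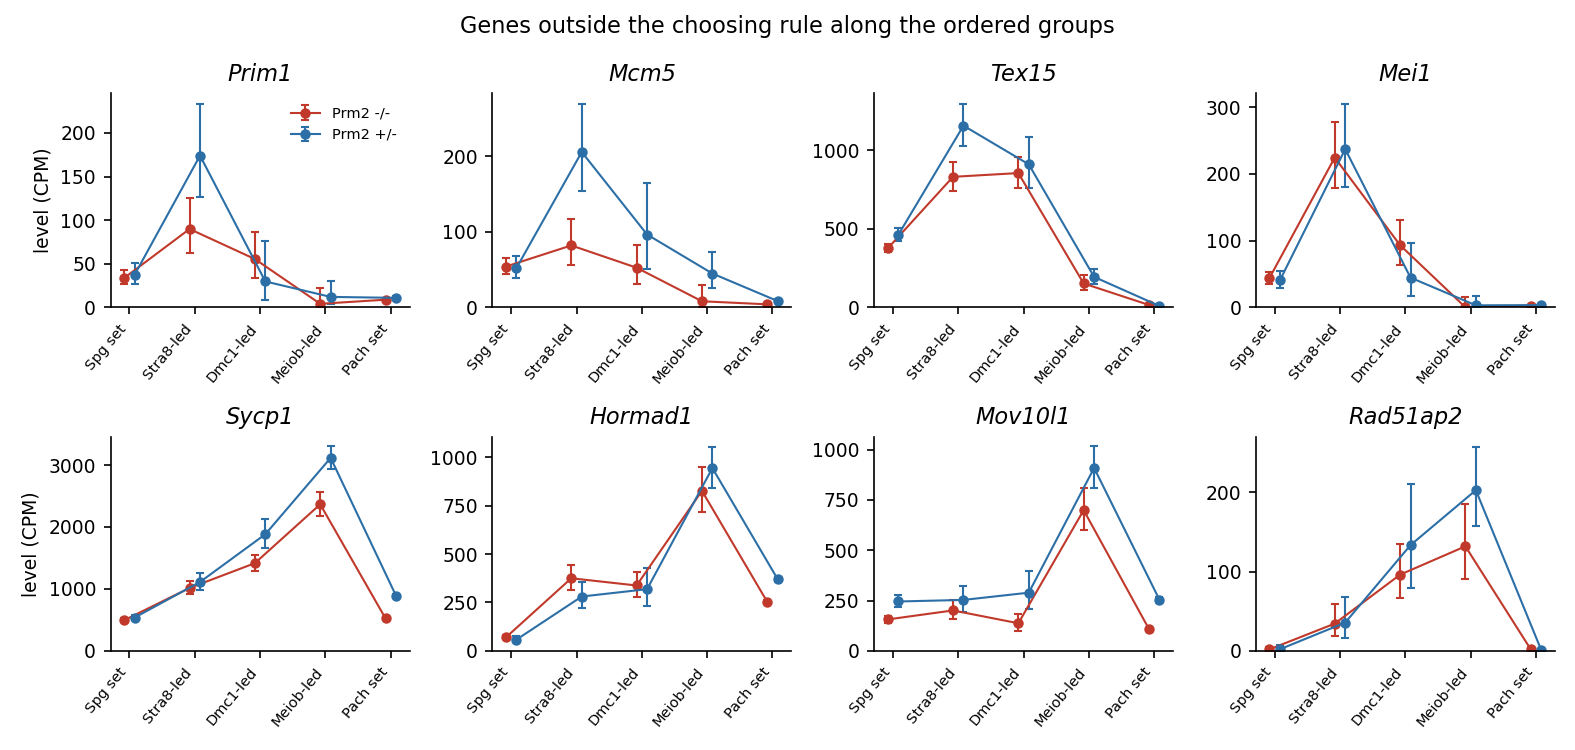
Levels in CPM (vertical axes, each from 0) of 8 genes outside the choosing rule in the spermatogonium set (Spg set), Stra8-led, Dmc1-led and Meiob-led members and the pachytene set (Pach set), for Prm2 -/- (red) and Prm2 +/- (blue). Whiskers are exact 95% counting intervals; the upper row stands highest in Stra8-led or Dmc1-led members and the lower row in Meiob-led members, as with Sycp1 at 2366 CPM in Prm2 -/- and 3116 CPM in Prm2 +/-.

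X-linked genes, which are silenced as a chromosome in pachytene spermatocytes, took a smaller share of the UMIs in Meiob-led than in Stra8-led members. The share of chromosomal UMIs outside the choosing genes was 1.91% and 1.95% in the spermatogonium set of Prm2 -/- and Prm2 +/-, and 1.87% (1.83% to 1.92%) and 2.07% (2.01% to 2.12%) in Stra8-led members. It was 1.83% and 1.66% in Dmc1-led members, 0.828% (0.792% to 0.865%) and 1.23% (1.19% to 1.27%) in Meiob-led members, and 0.192% and 0.129% in the pachytene set. Meioc-led members stood at 1.03% and 1.09%. Over all members the libraries had 1.44% and 1.46%, so the members lay between the spermatogonium and pachytene sets. Within Meiob-led members the Prm2 -/- share was the lower, with intervals that did not overlap. Ccnb3, an X-linked cyclin gene, was highest inside the members, with 26.4, 75.7 and 40.0 CPM from Stra8-led to Meiob-led in Prm2 -/- and 23.7, 126 and 104 CPM in Prm2 +/-, against 5.54 and 7.69 CPM in the spermatogonium set. It was chosen after its values were seen.

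**Figure D3:**
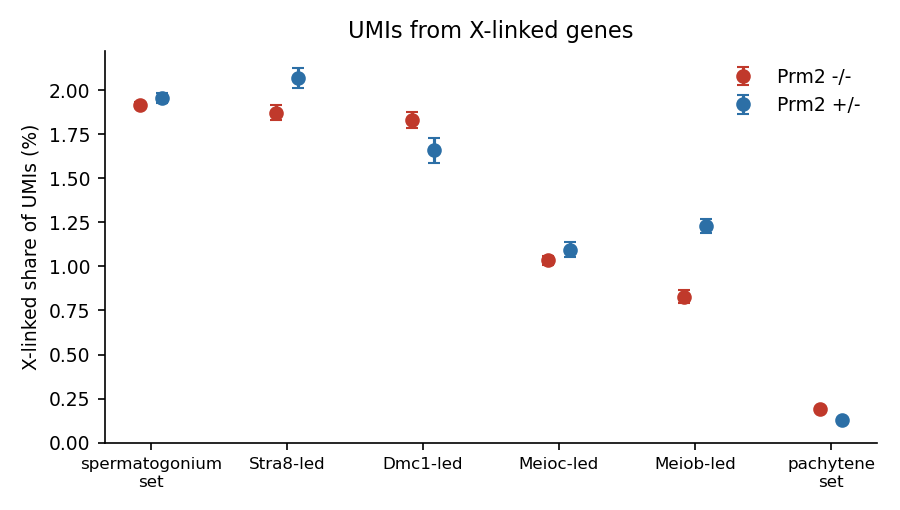
Share of chromosomal UMIs from X-linked genes (%, vertical axis) in the spermatogonium set, the 4 larger groups of members and the pachytene set, for Prm2 -/- (red) and Prm2 +/- (blue). Whiskers are exact 95% binomial intervals; the share is 1.91% in Prm2 -/- and 1.95% in Prm2 +/- in the spermatogonium set and 0.192% and 0.129% in the pachytene set.

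Set against their neighbours in development, members held genes that neither neighbour shared at that level. The pachytene set was defined by Piwil1 and Pou5f2 and held 1447 barcodes in Prm2 -/- and 453 in Prm2 +/-, and the spermatogonium set held 490 and 189. Of 4162 genes with at least 50 CPM in members or neighbour and at least 100 UMIs over the pair, 92 (2.21%) were at least 2-fold higher in members than in both sets, in both libraries. Rad51ap2 headed them: it had 83.3 CPM in members against 1.85 CPM in the spermatogonium and 1.88 CPM in the pachytene set of Prm2 -/-, and 142 CPM against 1.92 and 1.17 CPM in Prm2 +/-. Like other genes under 50 CPM in both neighbours, Rad51ap2 passed the filter only through the members. The count and the order of these genes are therefore description. At 2000 UMIs per barcode, 15.3% of Prm2 -/- and 22.7% of Prm2 +/- members had a Rad51ap2 UMI. The shares were 0.223% in the spermatogonium set of Prm2 -/-, 0 of 173 barcodes in that of Prm2 +/- (which allows up to 1.73%, taken as 3 counts), 0.566% and 0.673% in the pachytene sets, and 0.277% and 0.0431% in spermatid-rich barcodes, those with at least 10% of UMIs from the spermatid list. Without thinning, members stood at 23.0% and 35.6%. The gene lies at chr12:11456079-11462928.

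Next came Stxbp5l with 165 CPM in Prm2 -/- and 159 CPM in Prm2 +/- members, Pbx3, a homeobox gene, with 404 and 421 CPM, Sdk1, a cell adhesion gene, with 612 and 659 CPM, and Ccdc152 with 61.6 and 100.5 CPM. Prss50, Eml5, Top2b, Inca1 and Shoc1 completed the first 10. Sdk1 had 56.7 and 58.7 CPM in the spermatogonium sets and 5.70 and 1.83 CPM in the pachytene sets. Shoc1, a crossover factor, had 83.3 and 99.5 CPM in members, against 21.2 and 20.2 CPM in the spermatogonium and 16.9 and 23.1 CPM in the pachytene sets. From the lists, Sycp1, Sycp3, 4930447C04Rik, Hfm1, Brca2 and Zcwpw2 were also among the 92. Under TMM scaling, which lowered every ratio of members over the pachytene set by 0.80 in Prm2 -/- and 0.73 in Prm2 +/- on the log2 scale, 42 of the 4162 genes passed.

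By list, all 10 measured axis and synaptonemal genes that passed the level filter were higher in members than in the spermatogonium set in both libraries, where 53.1% of 4635 genes were, and 7 were at least 2-fold higher, where 6.82% were. Their median log2 ratio was 1.78 in Prm2 -/- and 2.14 in Prm2 +/-. Against the pachytene set 4 of 10 were at least 2-fold higher, where 25.8% of 4975 genes were. Of the 9 break formation and hotspot genes, 5 were at least 2-fold higher than in the pachytene set. Replication genes stood lower than in the spermatogonium set, with 13 of 18 lower in both libraries, where 32.6% of genes were, and 3 higher. Of the 20 genes of a pachytene list that the rule did not use, 11 of 19 that passed the filter were at least 2-fold lower in members than in the pachytene set, where 13.5% of genes were. The spermatid list stood the other way: all 16 of its genes that passed the filter were at least 2-fold higher in members, at a summed 22209 and 22880 CPM in members without Prm2, against 7797 and 7784 CPM in the pachytene sets. Members were shallower than the pachytene sets, whose median was 11312 UMIs in Prm2 -/- and 15611 in Prm2 +/-, and the part of depth and of spermatid RNA in these ratios was not tested. With the TMM shift, chosen after seeing the data, 0 of the 16 spermatid genes, 2 of the 10 axis genes and 5 of the 9 break formation genes were at least 2-fold higher than in the pachytene set, and 13 of the 19 pachytene genes at least 2-fold lower. That shift lowers every ratio, and the shares of all genes under it were not computed. The shares of all genes given above do not apply to these counts. Sycp1 was detected, at 2000 UMIs, in 82.5% of Prm2 -/- and 93.2% of Prm2 +/- members, against 56.1% and 56.6% in the spermatogonium sets, 53.1% and 74.0% in the pachytene sets, and 12.6% and 6.42% of spermatid-rich barcodes of median depth 4574 and 6074.5 UMIs.

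Between the genotypes, members were alike at most genes. Of 5115 genes with at least 50 CPM in 1 library and at least 100 UMIs over both, 147 (2.87%) were at least 2-fold higher in Prm2 -/- and 51 (0.997%) at least 2-fold lower, and the median log2 ratio was 0.01. With 1 library per genotype these are differences between 2 libraries with no replicate check. The shares were 2.51% higher and 0.693% lower in the spermatogonium set and 1.51% and 0.566% in the pachytene set. With a filter of 200 CPM in place of 50 CPM the members' counts were 13 higher and 17 lower of 1112 genes. Members held 2029764 UMIs in Prm2 -/- and 1094958 UMIs in Prm2 +/-. A gene at 50 CPM thus reached 100 UMIs in Prm2 -/- alone but not in Prm2 +/- alone. The filter therefore let in low genes more readily when they were higher in Prm2 -/-. No excess of higher genes is read from these counts.

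With clone-based and predicted names left out, the lowest gene in Prm2 -/- after Prm2 was Hist1h2ap, a histone H2A gene, with 58.6 CPM in Prm2 -/- and 390.0 CPM in Prm2 +/- members (log2 ratio -2.73, -3.04 to -2.44). Cmss1 had 345 and 1403 CPM (-2.02). Also among the lowest were the histone genes Hist1h4d, Hist1h1e, Hist1h2aa, Hist1h4c, Hist1h1c and Hist1h2ba, with log2 ratios between -2.14 and -1.80. Histone genes have near-identical copies among which reads can be split, so single members of the family are uncertain. All the genes named here had ratios below 0 in the spermatogonium and pachytene sets too, with only the interval of Hist1h1c in the pachytene set (-2.19 to 0.27) reaching above 0. The ratios were -2.89 for Hist1h2ap and -1.88 for Cmss1 in the spermatogonium set, and -1.59 and -1.11 in the pachytene set.

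By the same rule the highest genes in Prm2 -/- were Catspere1, for an auxiliary subunit of the sperm calcium channel, with 90.2 CPM in Prm2 -/- and 14.6 CPM in Prm2 +/- members (log2 ratio 2.63, 1.89 to 3.46), and Fmn1, a formin gene, with 94.6 and 15.5 CPM (2.61, 1.89 to 3.42). Magi2, a scaffold protein gene, had the most UMIs among them, with 1707 UMIs in Prm2 -/- and 219 UMIs in Prm2 +/- members (2.07, 1.87 to 2.28). Cyp19a1, the gene of aromatase, had 190 and 54.8 CPM (1.79). Tuba8, Cst9, Lrmda, Slc47a2, Tmem30c and Arhgap20 made up the 10, between 2.08 and 1.72. Several are pachytene genes in these libraries: Magi2 had 1469 and 1253 CPM, Catspere1 165 and 158 CPM and Cyp19a1 447 and 524 CPM in the pachytene sets. Piwil1, a choosing gene bounded by the rule, stood at 129 CPM in Prm2 -/- and 54.8 CPM in Prm2 +/- members. Its level is description and is no support for the ratios of other genes. Weighting the leading-gene groups equally gave 1.41 for Magi2, 2.20 for Catspere1 and 1.32 for Cyp19a1.

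**Figure D4:**
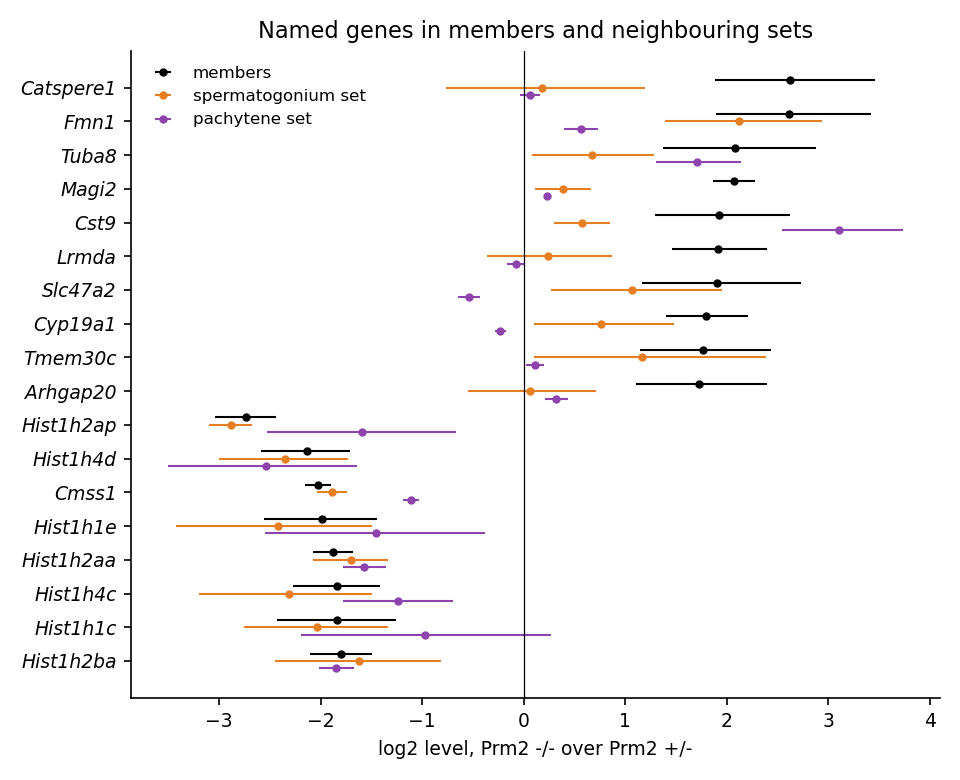
Log2 ratio of Prm2 -/- over Prm2 +/- (horizontal axis) for the 10 highest genes and the lowest genes named in the text, without Prm2, in members (black), the spermatogonium set (orange) and the pachytene set (purple). Whiskers are exact 95% counting intervals; the lower genes lie left of 0 in all 3 sets, while Magi2 stands at 2.07 in members and 0.23 in the pachytene set.

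The pachytene list as a whole leaned the same way. Of its 17 genes that passed the filter in members, 16 had a ratio of Prm2 -/- over Prm2 +/- above 0, where 51.4% of all genes had, and 11 had intervals wholly above 0, where 22.4% had. Of these 2 were at least 2-fold higher, where 2.87% of all genes were. The list had a median log2 ratio of 0.44 beside 0.01 over all genes. Ybx2, a germ cell RNA-binding protein gene, had 669 and 309 CPM (1.11), Adam3, a sperm surface protein gene, 310.4 and 148 CPM (1.07), and Ldhc, the germ cell lactate dehydrogenase, 2444 and 1796 CPM (0.44). Gm5617 was the exception at 1155 and 1357 CPM (-0.23). The median was 0.64 in the spermatogonium set and 0.38 in the pachytene set, and 0.39 in members with the leading-gene groups weighted equally. The share of members with most UMIs from Meiob, given above, and the share marked as doublets, which was far under expectation in Prm2 +/-, differed between the libraries beside it, and their part was not tested.

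Axis genes leaned the other way. Of 10 genes, 3 had ratios above 0 and 6 had intervals wholly below 0, where 18.6% of all genes had, with a median of -0.22 and 0 past 2-fold. Sycp1 had 1574 and 2226 CPM (-0.50, -0.58 to -0.42), Sycp3 1062 and 1252 CPM (-0.24) and Hormad1 495 and 632 CPM (-0.35), while Syce2 had 544 and 393 CPM (0.47) and Tex12 217 and 137 CPM (0.66). In the pachytene set the median was -0.42 and in the spermatogonium set 0.27. With the leading-gene groups weighted equally the members' median was -0.18, with 2 of 10 genes above 0. The share of Meiob-led members, where the list summed highest, differed between the libraries, and its part was not tested. Of 18 strand exchange genes 2 were at least 2-fold lower, Mnd1 with 36.5 and 74.0 CPM (-1.02) and Rpa2, of the single-strand binding complex, with 53.7 and 109 CPM (-1.02), and Rad51ap2 had 83.3 and 142 CPM (-0.77). Mov10l1 was the only one of 15 piRNA genes past 2-fold, with 308 and 618 CPM (log2 interval -1.16 to -0.84), and Gtsf1, needed for PIWI proteins to cut their targets, had 530.1 and 272 CPM (0.96). Spo11 had 62.6 and 28.3 CPM (1.14, 0.57 to 1.76). Replication genes had a median of 0.03 with 0 of 18 past 2-fold. With equally weighted leading-gene groups Mnd1 stood at -0.77, Mov10l1 at -0.81 and Rpa2 at -0.93, so that all 3 came inside 2-fold. Over the 11 alternative settings, 0 piRNA genes were at least 2-fold lower in 6 and 0 strand exchange genes in 3, both groups including the setting without barcodes marked as doublets, where Mnd1 stood at -0.89, Mov10l1 at -0.87 and Rpa2 at -0.96.

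**Figure D5:**
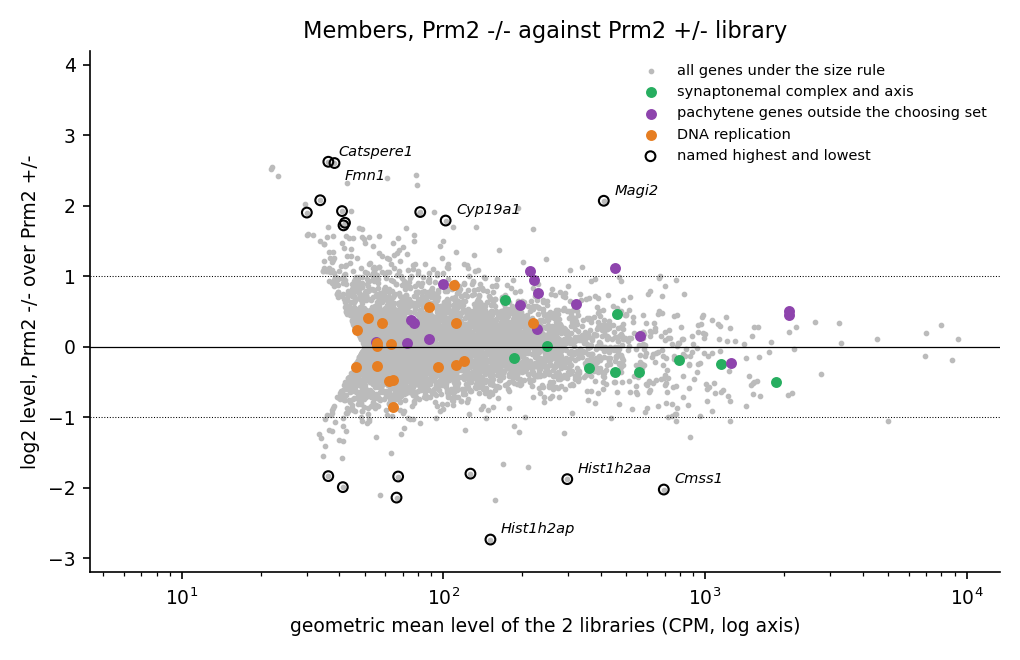
Log2 ratio of Prm2 -/- over Prm2 +/- in members (vertical axis) against the geometric mean level (CPM, logarithmic axis) for the 5115 genes that passed the level filter, Prm2 left out of the frame. Coloured points are genes of 3 lists and open circles the named highest and lowest genes, dotted lines are 2-fold; pachytene list genes lie mostly above 0 (median 0.44) and axis genes mostly below (median -0.22).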

How the data were processed

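Tubules of whole testis were dissociated and put through a 10x Genomics 3′ v3.1 kit, per the labels' protocols. The deposited files hold whole-number UMI counts per gene and barcode, counted by the authors; version 7.1.0 of Cell Ranger is given per the file headers. Seurat 4.1.0 and mm10 appear in the submitters' processing notes with no role. No barcode had under 500 UMIs. The files list 32285 Ensembl gene IDs, of which 32235 were found in GENCODE M21 for chromosomes and positions. The other columns of samples numbered 0.

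UMIs were summed over the barcodes of a set in each library and given as CPM of that sum. Intervals are exact (conditional binomial for log2 ratios, Clopper-Pearson for shares), all at 95% and for counting error only. A gene entered a ratio with at least 50 CPM in 1 set and at least 100 UMIs over both, and a set at 0 was given a floor of 3 counts. With 1 library per genotype no test was run. Counts of list genes between leading-gene groups were read at 20 UMIs per gene, a choice made after the level filter had left few list genes. Rankings of single genes between these groups kept the level filter. Scrublet (scanpy 1.11.5) marked doublets at an expected 0.8% per 1000 barcodes, and marked barcodes were kept except in 1 alternative. The ratio script was tested on simulated counts. Software was Python 3.11.15, numpy 2.4.6, scipy 1.17.1, pandas 2.3.3 and edgeR 4.0.16, the last for TMM (trimmed mean of M-values) factors only.

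The members, the 17 gene lists and the settings were chosen with earlier results of these data known. Named genes were the 10 highest and 10 lowest ratios of Prm2 -/- over Prm2 +/-, the 10 furthest above both neighbouring sets in both libraries, 5 at each end of Stra8-led over Dmc1-led, and list genes; 1 gene of the lowest 10 is not reported here. Genes of the rule, mitochondrial genes and clone-based names were left out of the rankings. Promoters are from RefSeq. Meiob, Pbx3 and Shoc1 had no entry used here.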

Additional observations from a re-analysis of the deposited data

Results flagged for a closer look

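Of the genes named as highest or lowest in members, 2 had intervals of the ratio of Prm2 -/- over Prm2 +/- on opposite sides of 0 in members and in the pachytene set. Slc47a2 had 58.1 CPM in Prm2 -/- and 15.5 CPM in Prm2 +/- members, a log2 ratio of 1.90 (1.16 to 2.73), and 96.4 and 140.2 CPM in the pachytene sets, a log2 ratio of -0.54 (-0.65 to -0.43). Cyp19a1 had a log2 ratio of 1.79 (1.40 to 2.21) in members and -0.23 (-0.28 to -0.17) in the pachytene set. In the spermatogonium set the ratios were 1.07 and 0.77. With 1 library per genotype the difference between the sets was not tested.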

How the results depend on the processing

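No paired analysis was possible because each genotype has 1 library. Requiring 5 UMIs of the choosing genes gave members' shares of 0.969% in Prm2 -/- and 1.05% in Prm2 +/-, 0.773 members per spermatogonium-set barcode in Prm2 -/-, 27.1% and 30.4% Stra8-led, 7.80% Meiob-led and 25.2% Meioc-led in Prm2 -/-, and 76 genes at least 2-fold higher and 32 lower. Requiring 0.1% of UMIs gave shares of 1.92% and 1.38% and 27 lower genes. Among barcodes with at least 2000 UMIs the shares were 2.95% and 3.43%, the ratio in Prm2 -/- was 1.02 and the X-linked share of Prm2 -/- members 1.40%. Thinning to 2000 UMIs, chosen after seeing the data, gave shares of 1.68% and 2.47% and ratios of 0.981 and 1.83. Without barcodes marked as doublets the X-linked share was 1.40% in Prm2 -/- members, 2.04% and 2.14% in Stra8-led and 0.748% in Prm2 -/- Meiob-led members. Without members with over 2% spermatid UMIs, also chosen after seeing the data, 13.9% of Prm2 -/- members were Dmc1-led. A minimum of 200 CPM gave 13 higher and 17 lower genes, against 147 and 51. TMM scaling left 42 genes above both neighbouring sets, against 92. The causes of these changes were not tested, except that the stricter rules and filters keep fewer barcodes or genes by construction. The other 71 alternatives of the main results stayed within their counting intervals or within 1.5 times the count. Of 270 alternative values of single genes, 24 moved beyond their interval and 0 changed sign. Genes near 50 CPM rest on few UMIs, so 2-fold ratios there have wide intervals.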
